A study of Mus musculus with 2 samples.

Results

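Mitochondrial ribosomal proteins are encoded in the nucleus, made in the cytosol and imported into mitochondria, where they assemble with 2 ribosomal RNAs into a large and a small subunit. The small subunit reads the messenger RNA and the large subunit joins amino acids. Their product is the small set of respiratory chain subunits encoded by mitochondrial DNA. Genes whose names on the array were Mrpl or Mrps followed by a digit were taken as members. The rule used names and not values, but it was set with earlier results of these data known. There were 77 of them among 37074 named targets, 48 named for the large subunit (Mrpl) and 29 for the small subunit (Mrps).

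Expression was read on 2 Agilent arrays of mouse RNA. The first came from cells treated with S180, as the labels call the agent, and the other from DMSO-treated cells, the solvent control. The labels give no cell type, genotype, dose, exposure time or identity for S180. The arrays shared 1 slide and 1 scan. With 1 array per group there is no replicate check, so no p-value is given, and precision is limited by there being only 2 arrays. The labels name no cell type to check: all 7 melanocyte markers examined were well above background on both arrays, as were 5 of 5 fibroblast, 3 of 5 macrophage, 2 of 4 epithelial, 1 of 4 endothelial, 1 of 4 T cell and 0 of 3 hepatocyte markers. In S180 the melanocyte markers had signals from 4651 to 215584 and in DMSO from 5683 to 233546, while the fibroblast markers ran from 81.7 to 640 and from 139 to 1378.

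A gene counted as measured when a probe of it was flagged well above background on both arrays by the scanner software, and its brightest such probe stood for it. All 77 members were measured, on 114 of their 119 probes, so that no member was lost to the filter on dim signals. Of the members, 66 lay in the brightest tercile of the 20782 measured genes by mean signal, 10 in the middle tercile and 1, Mrpl35, in the dim tercile. Values are log2 processed signals minus the 75th percentile of their array, a signal of 615 for S180 and 748 for DMSO. A signal that is lower on the S180 array can therefore still be equal after scaling. The error of single differences is the spread between repeated spots of the same probe. For differences of 1 spot against 1 spot, the SD was 0.035 (log2) over 260 repeated probes in the bright tercile and 0.065 over 6 in the middle tercile. Variation from cell culture, RNA extraction and dye labelling is not part of it.

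**Figure D1:**
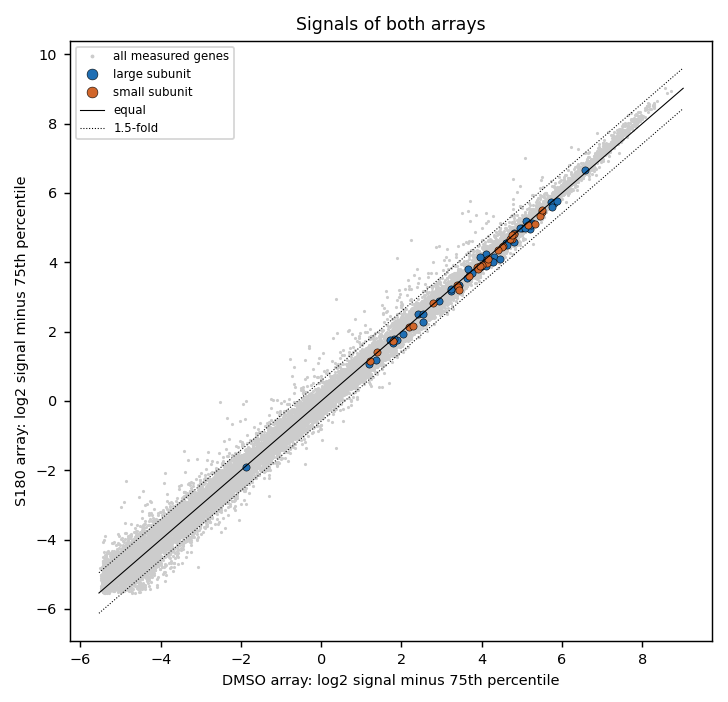
Log2 signal minus the array's 75th percentile, DMSO array on the x axis and S180 array on the y axis, for 20782 measured genes (grey), 48 large-subunit genes (blue) and 29 small-subunit genes (orange). All 77 members lie between the dotted 1.5-fold lines, and all except Mrpl35 lie in the upper part of the signal range.

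The comparison of S180 with DMSO asked how the genes of each subunit responded to the agent. No member differed by 1.5-fold. The count was 0 of 77 in each direction, where the share of all measured genes past that threshold was 3.08% for higher and 1.71% for lower in S180. The differences ran from -0.37 (log2) for Mrpl36 to 0.20 for Mrpl54, and their SD between genes was 0.098, against 0.29 for all measured genes and 0.21 for all genes of the bright tercile. At a threshold of 1.2-fold, 2 members were lower in S180 (Mrpl36 and Mrpl41) and 0 were higher, where 11.8% of measured genes were lower and 15.1% higher. Most members are bright, and bright genes pass these thresholds less often. Of the 6928 genes of the bright tercile, 262 were lower and 607 higher at 1.2-fold, and 7 were lower and 115 higher at 1.5-fold.

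Most members nevertheless lay on one side of the median gene. Of the 77 members 61 lay below the median measured gene, whose difference was 0.0043, and 16 lay above it, where 50% of measured genes lie on each side by definition. The member median was -0.068, or 0.072 below the median gene. In the bright tercile of all measured genes 52.3% lay above the median gene, with a median difference of 0.013. Of the 66 members in the bright tercile 26 (39.4%) lay within 0.069 of the median gene, which is 2 SD of a difference between single bright spots, against 34.8% of all 6928 genes of that tercile. With bulk RNA, fewer cells of a type and less RNA per cell cannot be told apart.

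The 48 large-subunit genes had a median difference of -0.080, with quartiles of -0.13 and -0.024, and 11 of them (22.9%) lay above the median gene. The 29 small-subunit genes had a median of -0.065, with quartiles of -0.11 and -0.041, and 5 of them (17.2%) lay above it. The medians thus differed by -0.015 (large minus small), a difference that could not be tested with 1 array a group. This small gap changed its sign, to 0.00675 with quantile normalization, 0.010 with cyclic loess, 0.00977 with normexp background correction and 0.00428 in the deposited table. In the main setting the width differed more, with SDs between genes of 0.11 (large subunit) and 0.066 (small subunit). The large subunit, which has more genes, held both ends of the range, Mrpl36 and Mrpl54, each read by 1 probe. The width was not tested, and it was not followed across the other settings.

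**Figure D2:**
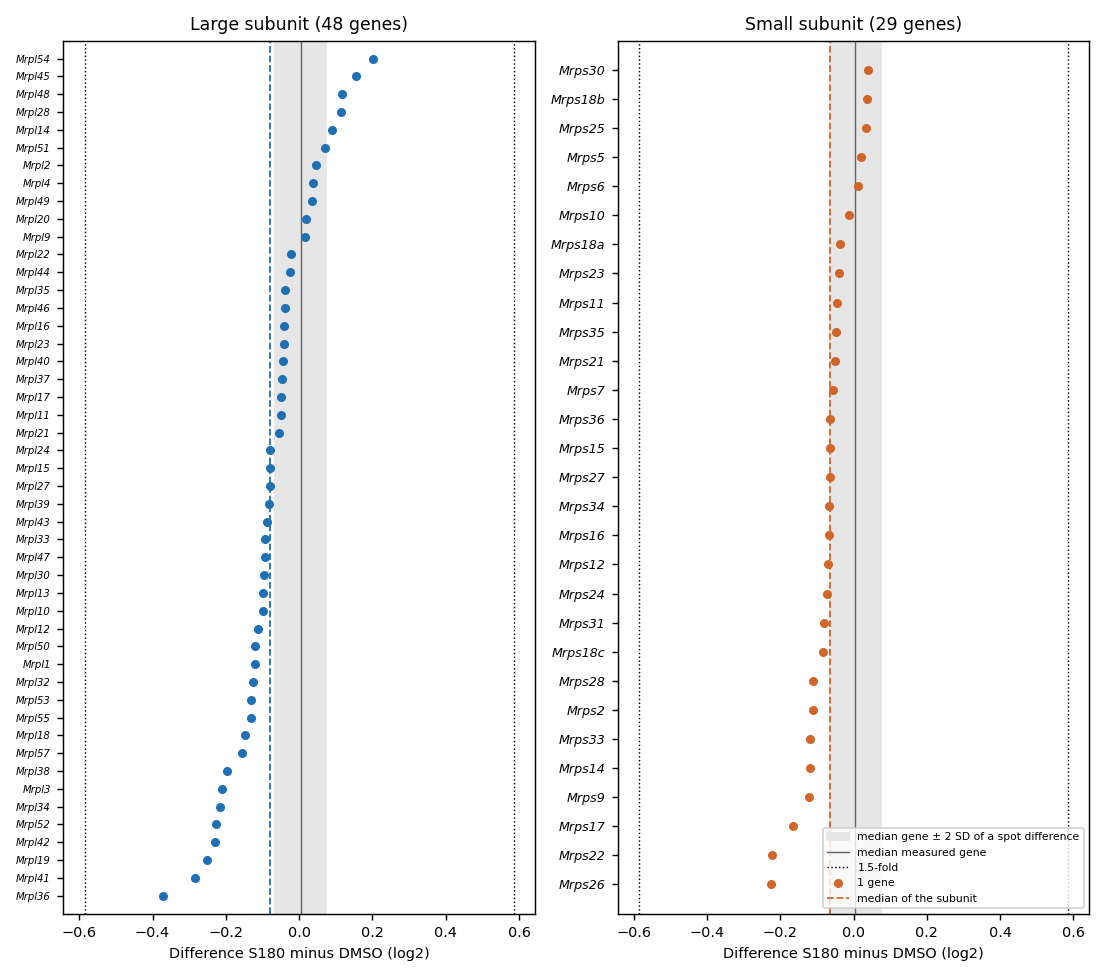
Log2 difference (S180 minus DMSO) of each of the 48 large-subunit genes (left) and 29 small-subunit genes (right), ranked from bottom to top. The solid line is the median measured gene, the grey band 2 SD of a difference between single bright spots on either side of it, the dashed line the subunit's median (-0.080 large, -0.065 small) and the dotted lines 1.5-fold. Every gene lies inside the dotted lines, and the large subunit spreads wider.

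Among large-subunit genes the lowest was Mrpl36, the counterpart of the smallest protein of the bacterial large subunit. Its signal was 10471 in S180 and 16446 in DMSO, 1.29-fold lower in S180 after scaling (log2 -0.37), from a single probe. Mrpl41, a protein found only in mitochondrial ribosomes, had signals of 9873 and 14617 and a log2 difference of -0.28. Mrpl19 had signals of 3004 and 4345 and a difference of -0.25. These 3 genes stood lowest of all members, and each was read by 1 probe on the array. Mrpl42 and Mrpl52 followed at -0.23 each, then Mrpl34 and Mrpl3 at -0.21 each. Mrpl38, a component of the central protuberance, was at -0.20 on its brightest probe and at -0.27 and -0.31 on its others, so that all 3 of its probes lay below the median gene.

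At the other end was Mrpl54, a protein specific to mitochondria, with signals of 10915 in S180 and 11540 in DMSO and a difference of 0.20. Mrpl45, which holds the ribosome to the inner membrane near the mouth of the exit tunnel, had signals of 8663 and 9457 and a difference of 0.15. Mrpl48 and Mrpl28 were at 0.12 each, Mrpl14 at 0.089 and Mrpl51 at 0.071.

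Genes were also grouped by the place of their protein in the large subunit, a grouping partly chosen after the values were seen. Among the genes listed here the differences varied in size, and they took both signs near the peptidyl transferase centre and around the exit tunnel. Near the peptidyl transferase centre, where peptide bonds form, Mrpl2 was at 0.047 and Mrpl16 at -0.041, while Mrpl3 was at -0.21. In the stalk that recruits translation factors, Mrpl10 was at -0.099 and Mrpl12 at -0.11, and Mrpl11 at its base was at -0.048. Around the exit tunnel, Mrpl22, Mrpl23 and Mrpl24 were at -0.021, -0.042 and -0.079, Mrpl39 was at -0.082 and Mrpl44 at -0.025, below Mrpl45. In the central protuberance Mrpl18 was at -0.15 and Mrpl46 at -0.038, with Mrpl40 at -0.044 and Mrpl38, named above, at -0.20. Not every gene of that place is listed here.

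The small-subunit genes lay closer together. Mrps26 was the lowest at -0.22, with signals of 20997 (S180) and 29808 (DMSO). Mrps22 was also at -0.22, with signals of 5671 and 8036, and its second probe gave -0.20. Mrps17 was at -0.16, with -0.22 from its other probe. The highest was Mrps30 at 0.040, with signals of 4386 and 5184, followed by Mrps18b at 0.036 and Mrps25 at 0.035. Mrps12, which lines the decoding site and is the site of streptomycin resistance in bacteria, was at -0.071, with signals of 15749 and 20097. Mrps16 was at -0.068, Mrps34 at -0.068 and Mrps7 at -0.057, close to the subunit's median. The members nearest to the median gene were Mrps6 at 0.013, Mrpl9 at 0.016 and Mrpl20 at 0.019.

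Mrps18a, Mrps18b and Mrps18c are relatives of 1 bacterial protein, and the proteins of Mrps18a and Mrps30 sit in the large subunit in spite of their names. Mrps18a was at -0.038 and Mrps18c at -0.083, with Mrps18b at 0.036. When Mrps18a and Mrps30 were counted with the large subunit, the medians were -0.079 (large) and -0.068 (small). Mrps36, now placed in the 2-oxoglutarate dehydrogenase complex, was at -0.064, and leaving it out gave a small-subunit median of -0.067.

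The members were also split by gene name into those listed with a bacterial counterpart and the rest, called mitochondria-specific here. This split is approximate and was made after the values were seen. The 28 bacterial-type large-subunit genes had a median of -0.079 and the 20 mitochondria-specific ones -0.085. In the small subunit the medians were -0.065 over 17 bacterial-type genes and -0.067 over 12 mitochondria-specific genes. Mrps18a was counted with the bacterial-type and Mrps30 and Mrps36 with the mitochondria-specific small-subunit genes here, as their names place them. Mrps28 was also counted with the mitochondria-specific genes, a placing that is open to dispute, and the medians with it moved were not computed. These medians were not tested against each other.

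Different probes of a gene were also compared, although some of them are named by different transcripts. Of 28 members with at least 2 measured probes, 18 had every probe below the median gene, 0 had every probe above it and 10 had probes on both sides. The brightest probe, which already placed the gene, is among them. The matching share of all measured genes with several probes was not computed, so these counts stand without a background. The median span between the lowest and highest probe of a gene was 0.11. Only Mrpl48 and Mrpl27 had probes more than 0.5 apart. Mrpl13 came next, with -0.098 from its bright probe (signals of 31921 and 41517) and 0.23 from the other (1607 and 1663).

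For Mrpl27 and Mrpl48 the first 30 bases of each probe are given, because the choice of probe sets the value there, together with those of the single probes of Mrpl36 and Mrpl54, the lowest and highest members. Each is written 5′ to 3′ in lower case from the array files, and positions are on build mm9.
Mrpl36, chr13:73469515-73469574: aaacgatgttcttgtgtagcaactatccca
Mrpl54, chr10:80727584-80727643: ccacaaccggctgagcaagaacaagaagct
Mrpl27 probe 1, chr11:94521320-94521379: ccatctataatctcttcttgtgtgtctgaa
Mrpl27 probe 2, chr11:94521032-94521091: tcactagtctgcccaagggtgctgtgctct
Mrpl27 probe 3, chr11:94517857-94517916: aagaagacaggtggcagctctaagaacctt
Mrpl27 probe 4, chr11:94515618-94515677: acacgtgagtaacttagttgtaatctcgaa
Mrpl48 probe 1, chr7:107697637-107697696: agttaccacttcccataacaaaacctagga
Mrpl48 probe 2, chr7:107697765-107697824: taaaaatactgcaagcccttcatgtgattg
Mrpl48 probe 3, chr7:107694484-107694543: agtctggtctccttgatctttgtctcagct
Mrpl48 probe 4, chr7:107746901-107746960: tgcatccatcctacaaatgtcattgcagga

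For Mrpl27, whose protein lies near the peptidyl transferase centre, probes 1 to 3 gave -0.081, -0.079 and -0.13, with signals of 10173, 9630 and 2860 on the S180 array. Probe 4, named in the files by another transcript record than the RefSeq transcript of probes 1 to 3, gave 0.39, with signals of 41.3 in S180 and 38.1 in DMSO. For Mrpl48, probes 1 and 2 gave 0.12 and 0.018, with S180 signals of 11556 and 9816. Probes 3 and 4 gave -0.32 and 0.29, with S180 signals of 34.1 and 28.0, and the files name them by Ensembl transcripts of the gene other than the RefSeq transcript of probes 1 and 2. In both genes the probes far from the others had signals under 100 in S180 and DMSO, although they were well above background on both arrays. In the dim tercile the corresponding SD was 0.26, over 11 repeated probes.

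**Figure D3:**
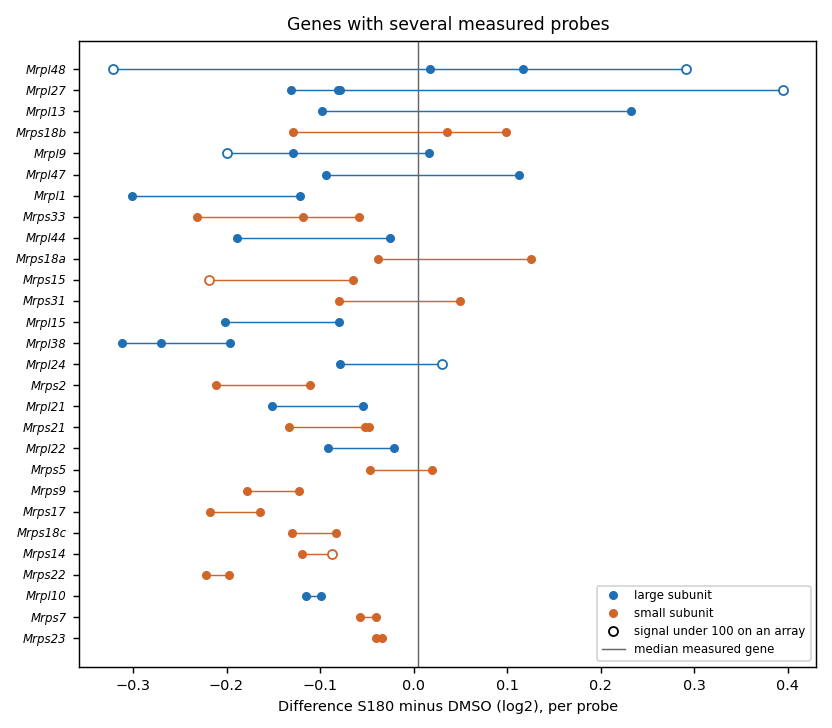
Log2 difference (S180 minus DMSO) of each measured probe of the 28 members with at least 2 measured probes, ordered by span, with the line joining a gene's probes and the vertical line at the median measured gene. Open points are probes with a signal under 100 on an array, and they form the far ends of Mrpl48 and Mrpl27.

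In the genome the brightest probes of the members lay on 17 chromosomes, with 10 members on chromosome 11, 8 on chromosome 17 and 7 on chromosome 6. Chromosome 7 carries Mrpl46 (probe at 85925493 to 85926340, minus strand) and Mrps11 (85933622 to 85935544, plus strand) as close neighbours pointing away from each other, with differences of -0.038 and -0.045. Of the 77 probes 8 covered more than 60 bases of the genome, so that they span an intron.

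The promoters of the members shared sequence features that their choice did not use. NRF1, ETS factors such as GABP, and YY1 are known activators of nuclear genes for mitochondria. The NRF1 core motif, CCGGAAG for ETS and AANATGGCG for YY1 were searched on both strands, with any overlap between them counted, in RefSeq promoters (build GRCm38.p6) from 250 bases before to 50 bases after the start, which the table held for 68 of the 77 members, with 74 promoters. The ETS core was found in 33.8% of member promoters and 8.86% of all 32851 promoters. The corresponding shares were 17.6% and 4.60% for the NRF1 core and 13.5% and 2.38% for the YY1 core. At least 1 of these cores was present in 55.3% of large-subunit promoters and 55.6% of small-subunit promoters, against 14.2% of all. The promoters of all genes were not limited to genes measured here, whereas every member was measured. Shares among measured genes, bright genes or other nuclear genes for mitochondria were not computed. Member promoters had a median GC content of 58.5%, against 52.7% for all, and the part of base composition in the shares was not tested.

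The 150 bases before the start are shown for the lowest and highest member of each subunit with a promoter in the table, and for the stalk gene Mrpl12, to show where the cores lie. Each is written 5′ to 3′ on the gene's strand, with the cores in capitals.
Mrpl36, chr13:73330859-73331008, plus strand: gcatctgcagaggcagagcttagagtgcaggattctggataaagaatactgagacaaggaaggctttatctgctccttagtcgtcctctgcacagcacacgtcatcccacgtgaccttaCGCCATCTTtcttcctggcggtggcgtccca
Mrpl45, chr11:97315566-97315715, plus strand: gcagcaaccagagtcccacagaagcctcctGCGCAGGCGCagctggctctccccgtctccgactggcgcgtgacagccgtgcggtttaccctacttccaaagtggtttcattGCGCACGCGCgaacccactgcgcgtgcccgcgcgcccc
Mrps26, chr2:130563607-130563756, plus strand: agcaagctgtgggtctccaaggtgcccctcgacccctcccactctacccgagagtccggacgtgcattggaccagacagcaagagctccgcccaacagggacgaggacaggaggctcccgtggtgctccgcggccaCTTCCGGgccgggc
Mrps30, chr13:118387253-118387402, minus strand: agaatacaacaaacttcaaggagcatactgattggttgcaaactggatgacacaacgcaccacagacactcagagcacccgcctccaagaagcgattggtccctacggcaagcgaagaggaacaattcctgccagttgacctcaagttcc
Mrpl12, chr11:120484487-120484636, plus strand: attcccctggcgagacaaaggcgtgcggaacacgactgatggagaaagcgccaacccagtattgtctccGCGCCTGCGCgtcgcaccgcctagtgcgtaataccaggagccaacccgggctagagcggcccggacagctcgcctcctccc

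The Mrpl36 window held a YY1 core in reverse, with its first printed base at position -31 from the start. Mrpl45 held the NRF1 core in reverse at -120 and -38 and once more after the start, and Mrpl12 held it at -81. Mrps26 held an ETS core in reverse at -14, and NRF1 cores in reverse at -2 and 5, across and after the start, which are not in capitals. The window of Mrps30 held none of the 3 cores, and its YY1 core lay at position 16, after the start. The median difference between S180 and DMSO was -0.082 in 13 members with an NRF1 core and -0.065 in 55 without, -0.081 in 25 with an ETS core and -0.057 in 43 without, and -0.056 in 10 with a YY1 core and -0.069 in 58 without.

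Genes that work with the mitochondrial ribosome were examined in the same way, and none of those on the following 6 lists reached 1.5-fold. Of all measured genes 3.08% were higher and 1.71% lower past that threshold, so a count of 0 in lists this short says little. Of 6 subunit proteins with other symbols, 3 lay above the median gene and 3 below, from -0.19 for Chchd1 and -0.14 for Ptcd3 to 0.22 for Dap3, a GTP-binding protein of the small subunit. Of 27 genes for the assembly of the ribosome 21 lay below the median gene, with a median of -0.10. The lowest was Tfb1m, which methylates the small-subunit ribosomal RNA, at -0.32 (signals of 1199 in S180 and 1821 in DMSO), and the highest was the GTPase Noa1 at 0.27 (43545 and 43851). Translation factors had a median of -0.071, with 13 of 15 below the median gene. Mtfmt, which formylates the initiator methionine, was at -0.29 and the elongation factor gene Tsfm at -0.28, whereas Tufm, encoding the other elongation factor of that pair, was at -0.048. The mitochondrial aminoacyl-tRNA synthetases had a median of -0.18, with 14 of 17 below the median gene, and the lowest was Hars2 at -0.42. Only 6 of these 17 genes lay in the bright tercile, as did 9 of the 27 assembly genes and 8 of the 15 translation factors. Of all measured genes 43.1% lay above the median gene in the middle tercile and 54.6% in the dim tercile.

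Regulators of mitochondrial transcription and biogenesis were at a median of -0.090, with 9 of 13 below the median gene. The coactivator genes Pprc1, Ppargc1b and Ppargc1a were at -0.38, -0.35 and -0.30, with signals of 3663 and 5777, 1503 and 2327, and 578 and 865 in S180 and DMSO. Tefm, an elongation factor of the mitochondrial RNA polymerase, was the lowest at -0.51. The genes of the factors whose motifs were counted lay nearer to the median gene, Nrf1 at -0.090, Gabpa at -0.077 and Yy1 at 0.096. Gabpb1 was at -0.097, while Gabpb2 was the highest of the list at 0.20. The 11 mitochondrially encoded messengers, which these ribosomes translate, had a median of 0.15. Of them 10 lay above the median gene, led by COX2 at 0.25 (signals of 104488 and 106786), and ND5 was at -0.18 (10739 and 14750). COX2, COX1 (140467 in S180) and CYTB (130833 in S180) were brighter than any member. The median of these messengers was read in the main setting only, so its dependence on the normalization was not tested.

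Compared with like gene groups, the members lay below the cytosolic ribosomal proteins. Those 76 genes had a median of 0.14, with 74 above the median gene, which is 0.21 above the median of the mitochondrial ribosomal proteins. The 87 measured nuclear genes of the respiratory chain and its assembly lay between them, with a median of 0.016 and 48 above the median gene. Scaling by 1 factor per array cannot change these gaps. The gap to the cytosolic ribosomal proteins was however 0.041 in the deposited table, 0.075 with quantile normalization and 0.14 with cyclic loess. The gap from the members to the respiratory chain, 0.084 in the main setting, was 0.017, 0.033 and 0.054 in the same order. Signal differed between these lists, and its part in the gap was not tested. Of the cytosolic ribosomal protein genes 75 of 76 lay in the bright tercile, as did 66 of the 77 members. Within that tercile most cytosolic genes were brighter than the brightest member, Mrpl51, which had a signal of 61907 in S180. Rpl10, for example, had 231329.

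**Figure D4:**
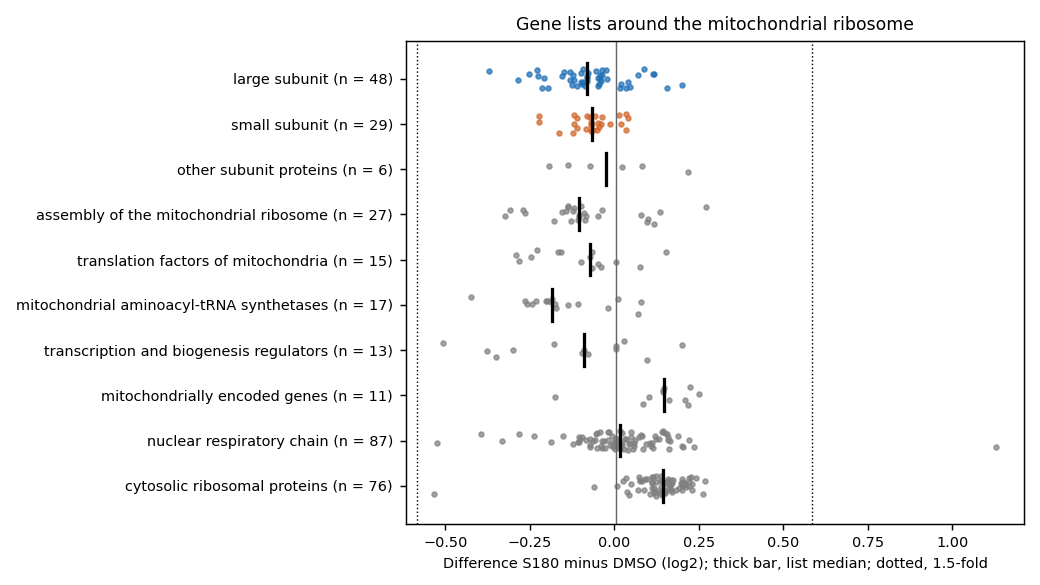
Log2 difference (S180 minus DMSO) of every measured gene of 10 lists, 1 point per gene, with the list's median as a thick bar, the median measured gene as a solid line and 1.5-fold as dotted lines. Both subunits, the other subunit proteins, the assembly and translation factors, the synthetases and the regulators have medians below the median gene. The mitochondrially encoded genes (0.15), the cytosolic ribosomal proteins (0.14) and the nuclear respiratory chain (0.016) have medians above it.

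The position relative to zero depended on the scaling, while the position relative to the median gene did so less. When 8 Agilent spike-in transcripts set the scale, the median gene was at -0.35 and the subunit medians at -0.435 (large) and -0.420 (small). Between 8 and 17 members lay above the median gene in the main setting and the 11 other treatments of the signals, which included other scalings, background corrections, probe choices and filters. Mrpl36 was the lowest member and Mrpl54 the highest in each of them. Median centring, no scaling and the spike-in scale move all genes together, so they could change neither the count nor these ends. The count was 14 with quantile normalization, 13 with cyclic loess, 13 in the deposited table and 8 with normexp background correction.

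**Figure D5:**
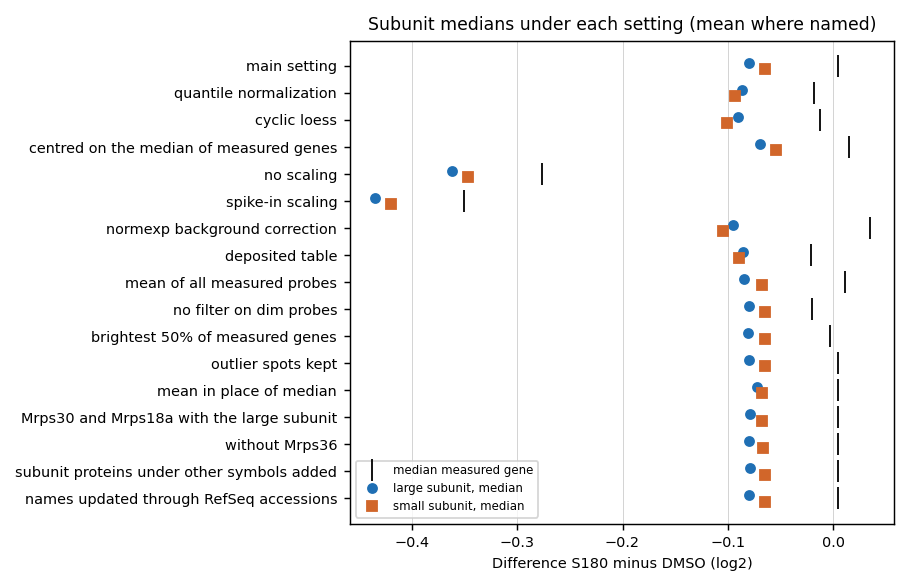
Median log2 difference (S180 minus DMSO) of the large-subunit genes (blue circles) and small-subunit genes (orange squares), with the median measured gene (black tick), under the main setting and each alternative. In every setting both subunits lie below the median gene and close to each other, with a gap (large minus small) between -0.017 and 0.010, and the pair moves left together without scaling and on the spike-in scale.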

How the data were processed

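Cy3-labelled RNA was hybridised to 1-colour Agilent arrays, per the labels' protocols. Spot intensities were deposited in scanner tables written by Agilent Feature Extraction 10.7.1.1. Per the file headers, the processed intensity is background-subtracted and corrected for trends across the array, and the arrays were not normalized to each other. A deposited table covering both samples holds log2 values. How it was made is not given in the files used here. On each array 99.98% of its values were within 0.05 of quantile-normalised log2 processed signal, and the median of both columns was 5.27, which settled scale, centring and direction from the data.

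Control spots and 260 spots with an outlier flag on either array were left out. Spots of a probe were averaged as log2, and each array was scaled by subtracting its 75th percentile, taken across 56602 probes. Gene names are those in the files. No test was run, since genes are not replicates. The steps were tested on simulated data. Values are given by rule for the 8 members farthest from the median gene in each direction, the 3 nearest it, members with probes over 0.5 apart, Mrps18a to Mrps18c, Mrpl10, Mrpl12, Mrps12, Mrpl2, Mrpl3, Mrpl16 and Mrps36, and, from other lists, for the largest differences and described roles. Other members with values were chosen after their values were seen. The members and lists were chosen with earlier results of these data known. Promoters were matched by RefSeq symbol, and cores were searched with Python 3.11.15. Alternative normalizations used R 4.3.3 and limma 3.58.1.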

Additional observations from a re-analysis of the deposited data

How the results depend on the processing

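No paired analysis was possible because each group has 1 array. Without scaling the large-subunit median was -0.36 and the small-subunit median -0.35, with 1 member at least 1.5-fold lower, beside 9.01% of all measured genes. On the spike-in scale they were -0.435 and -0.420, with 3 members at least 1.5-fold lower (Mrpl36, Mrpl41 and Mrpl19), beside 14.3% of all measured genes. By construction these scalings move all genes together. With normexp background correction 8 members lay above the median gene, and the cause was not tested. At a 1.2-fold threshold 2 members were lower, beside 11.8% of all measured genes and 262 of the 6928 genes of the bright tercile. Every other setting kept the subunit medians within the SD of a spot difference over all signals (0.063) of the main value and the counts within 1.5-fold. That tolerance is close in size to the medians themselves, so it is a coarse check. Apart from no scaling and the spike-in scale, the large-subunit value lay between -0.095 and -0.070. The small-subunit value lay between -0.105 and -0.054. The gap between the subunits stayed between -0.017 and 0.010. It has no sign that holds across settings. The technical error comes from probes on 1 slide, and a difference of this size between cultures was not measured.
The gaps to the cytosolic ribosomal proteins and the respiratory chain were examined as alternatives added after seeing the data.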
